A study of Mus musculus with 4 samples.

Results

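The genes described here encode potassium channels and voltage-gated sodium and calcium channels, and were chosen by symbol alone. They are the mouse genes whose symbols begin with Kcn and end in a subunit letter and number, the sodium channel genes whose symbols begin with Scn and end in a number and the letter a (alpha subunits) or b (beta subunits), and the calcium channel alpha1 subunits Cacna1a to Cacna1i. Of 25239 gene symbols, 115 met this rule, and the 70 with at least 20 counts summed over the 4 libraries were tested. Another 45 fell below that sum, 7 of them with 0 counts in every library. The libraries held polyadenylated RNA from mouse embryonic stem cells (mESC) of the genotype Ogt fl/fl, in which the gene for O-GlcNAc transferase can be deleted. The Ogt iKO group (2 libraries) was grown for 6 days with 4-OHT, the active form of tamoxifen, and the control group (2 libraries) without it. All cultures grew with LIF on mitomycin C-treated fibroblast feeders and were sorted as viable cells. The labels give CD90.2 (the product of Thy1) as the marker that picks the stem cells and CD326 (the product of Epcam) as the one that removes feeders, although Thy1 is usually a fibroblast marker and Epcam an epithelial and stem cell marker. Only the treated cultures were also selected for yellow fluorescent protein, no treated cells with intact Ogt are described, and the labels do not name the recombinase or its driver. Treatment, selection and loss of Ogt cannot be told apart. The labels do not say whether replicates were separate cultures, so p-values measure the spread between these libraries, which may be technical.

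Potassium channels let potassium leave the cell and hold the membrane at a negative resting potential. Voltage-gated sodium and calcium channels open when the membrane depolarises, which starts the electrical signals of neurons, heart and muscle. Pore-forming subunits make the channel itself, while auxiliary subunits change its gating or bring it to the cell surface. Most of these genes are used in a few excitable or secretory tissues. Embryonic stem cells are not electrically excitable in that sense, although a few background potassium channels are active in them.

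Total counts per library ran from 14668489 to 16504204, and a gene without a read could still stand at 3 counts, which is 0.182 to 0.205 per 1000000 counts of the total. Levels below are in CPM, counts per 1000000 on TMM-scaled totals. Such limits and the counting intervals below cover counting error only. These intervals were made only for genes with at most 3 counts in both libraries of 1 group and more in both of the other. That choice fixes the direction of their ratios, so the intervals are no test of it. Ogt, the targeted gene, gave 437 and 389 counts in the Ogt iKO libraries and 2963 and 3108 in the controls. Over all 15278 genes tested, 31.8% rose and 30.8% fell in Ogt iKO (edgeR, adjusted p under 0.05), and the marker counts that follow stand beside these shares. Of 13 pluripotency markers 12 fell (92.3%) and 0 rose, with Pou5f1 at 488 and 574 CPM in Ogt iKO and 895 and 850 CPM in control. Markers of fibroblasts were present in all libraries, and their 22 levels summed to 5160 and 2390 CPM in Ogt iKO against 2933 and 3212 CPM in control. Of these 22, 5 rose (22.7%), namely Tagln by 2.60, Acta2 by 1.72, Pdgfrb by 1.61, Twist1 by 1.44 and Sparc by 0.82 on the log2 scale, and 1 fell (4.55%), and each of the 5 was above both controls in both Ogt iKO libraries. Ogt iKO replicate 1 was above replicate 2 for all 22 genes. Of the genes of the named sorting markers, Epcam was at 280 and 287 CPM in Ogt iKO and 348 and 307 CPM in control, and Thy1 at 25.5 and 8.88 against 15.6 and 15.7 CPM. Neuronal and neural progenitor markers (21 genes) summed to 255 and 264 CPM in Ogt iKO against 417 and 394 CPM in control, but of the 17 tested 6 rose (35.3%, among them Nefm by 2.58, Syp by 1.95 and Nefl by 1.12 on the log2 scale), 5 fell (29.4%, among them the abundant Stmn2, Tubb3 and Sox1), and the median log2 fold change was 0.23. Heart and muscle markers (16 genes) summed to 44.6 and 45.3 against 34.1 and 35.8 CPM, and of 11 tested 5 rose (45.5%) and 1 fell (9.09%), with a median log2 fold change of 0.61. Primitive endoderm markers (11 genes) summed to 1060 and 732 against 493 and 509 CPM, of which Sparc alone gave 810 and 564 against 380 and 399 CPM. Of 10 tested 6 rose (60.0%, among them Sox17 by 3.27, Foxa2 by 2.63, Dab2 by 2.37 and Gata4 by 1.18) and 0 fell, with a median of 0.90. Sparc and Pdgfra stand in both the fibroblast and the primitive endoderm list, so these sums are not independent. No gene of these 4 lists had 0 counts in all libraries. In bulk RNA, more cells of a type and more RNA per cell cannot be told apart, and the part of these other cells in the channel values was not tested.

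Most channel genes were near silent. The 70 tested genes had a median level of 1.73 CPM, against 21.5 CPM over all 15278 genes tested, and 52 of them lay below 4 CPM. Summed over the whole class, channel RNA amounted to 358 and 358 CPM in Ogt iKO and 324 and 332 CPM in control. The 5 most abundant genes gave 45.4% and 47.8% of these counts in Ogt iKO and 51.8% and 51.3% in control. The highest levels per exon length belonged to tandem-pore potassium channels, with Kcnk5 at 22.4 RPKM (CPM per kilobase of exon) in control and 17.2 in Ogt iKO, and Kcnk1 at 13.6 and 17.5 RPKM. Other high levels were those of Kcnj4 (2.36 RPKM in control, 5.66 in Ogt iKO), Kcnk6 (3.56 and 3.53) and Cacna1a (2.58 and 3.88). The order of these last 3 differed between the groups. Just inside the threshold lay Kcne4 with 20 counts in all (11 and 0 in Ogt iKO, 2 and 7 in control). Just outside it lay Scn9a, Kcnk2 and Kcnmb4 with 19 each.

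After deletion of Ogt was induced, 27 of the 70 channel genes rose and 9 fell (adjusted p under 0.05, edgeR's quasi-likelihood test), and 34 did not pass. Across all genes tested the shares were 31.8% and 30.8%, or 62.6% in either direction. For the channels these shares were 38.6% and 12.9%, or 51.4% in either direction. The median log2 fold change was 0.29 over the channels (0.13 to 0.84 with other choices of genes, libraries or scaling) and 0.028 over all genes. At a fold of at least 2, 23 channel genes rose and 5 fell, or 32.9% and 7.14%, against 14.7% and 6.03% of all genes. Of the 70 genes, 52 had groups that did not overlap (74.3%, against 81.8% of all genes), with 31 higher and 21 lower in Ogt iKO (41.7% and 40.1% of all genes). Among genes of at least 1 CPM, the large rises included the sodium channel genes Scn7a and Scn3b and the calcium channel gene Cacna1d, and the large falls Scn3a and Scn8a. Below that level, Kcnk13 rose and Kcnj11 fell by similar amounts, each on 23 counts in all.

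**Figure D1:**
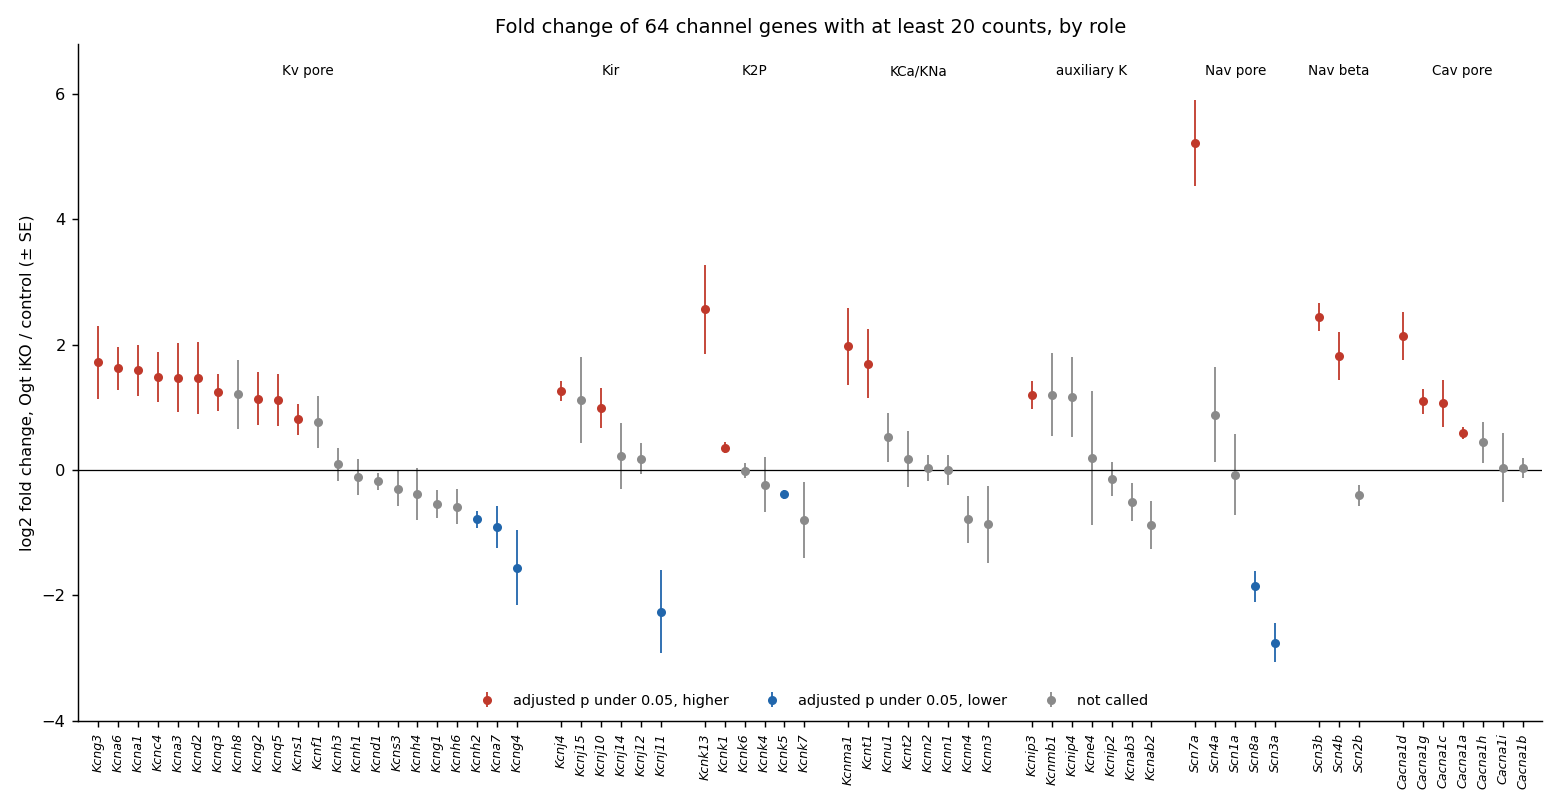
Log2 fold change (y axis, Ogt iKO over control, ± SE) of 64 of the 70 channel genes with at least 20 counts (x axis), grouped by role. Red points (24) rose and blue points (7) fell at an adjusted p under 0.05 (edgeR), and grey points (33) did not pass. Blue points are absent from the groups labelled KCa/KNa, auxiliary K, Nav beta and Cav.

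The channel genes were next set beside all genes of similar level. Among genes with a mean under 1 CPM, 9 of 24 channel genes rose (37.5%), against 29.9% of all genes at that level, and 2 fell (8.33%, against 6.42%). Between 1 and 4 CPM, 10 of 28 rose (35.7%, against 39.5%) and 3 fell (10.7%, against 12.9%). Between 4 and 16 CPM, 6 of 15 rose (40.0%, against 37.8%) and 3 fell (against 23.9%). At 16 CPM and over there were only 3 channel genes, with 2 higher and 1 lower (28.2% and 42.8% of all genes). The median log2 fold change of the channels was above that of all genes under 1 CPM (1.00 against 0.60) and below it from 1 to 4 CPM (0.18 against 0.50) and from 4 to 16 CPM (-0.012 against 0.17). At a fold of at least 2, 9, 8 and 6 channel genes rose in these 3 ranges (37.5%, 28.6% and 40.0%, against 29.9%, 31.7% and 20.8% of all genes), and 0 of 3 did at 16 CPM and over (against 5.09%). Within each of the 3 lower ranges the channel shares at an adjusted p under 0.05, whatever the fold, lay within 8 percentage points of the background, and the class as a whole is described here, not set apart from other genes of its level. A gene with few control counts could reach the sum of 20 only through Ogt iKO. This held for 11 tested channel genes with under 10 counts in control (6 of them called higher) and 3 with under 10 in Ogt iKO (2 called lower).

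**Figure D2:**
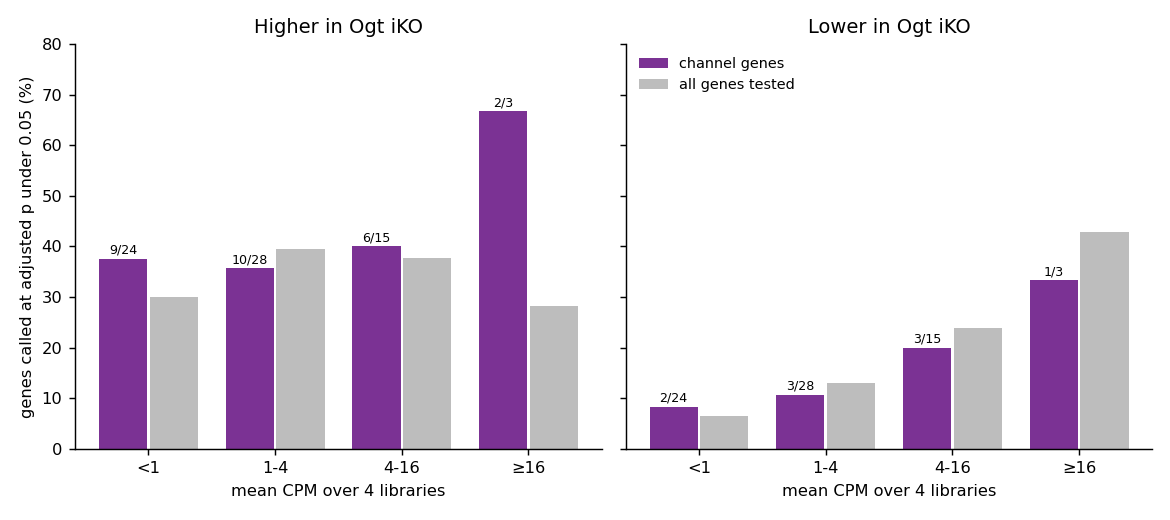
Percentage of genes called higher (left) or lower (right) by edgeR (adjusted p under 0.05), in 4 ranges of mean CPM over the 4 libraries (x axis). Purple bars are channel genes with the count printed above each bar, grey bars are all genes tested, and below 16 CPM both kinds of bar run at similar heights.

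With DESeq2, 13 channel genes rose (18.6%) and 6 fell (8.57%), against 23.3% and 25.8% of all genes, so that the share of rises lay below that of all genes. Without control replicate 1, edgeR called 17 higher (24.3%) and 8 lower (11.4%), against 26.3% and 25.7% of all genes. In each fit without 1 library, the group left with 1 library is assumed to vary like the other. In 11 alternative fits, 19 of the 36 calls were never lost, with 13 genes higher (among them Cacna1a, Cacna1d, Cacna1g, Kcna6, Kcnip3, Kcnj4, Kcnk1, Scn3b, Scn4b and Scn7a) and 6 lower (among them Kcnh2, Kcnk5, Scn3a and Scn8a).

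**Figure D3:**
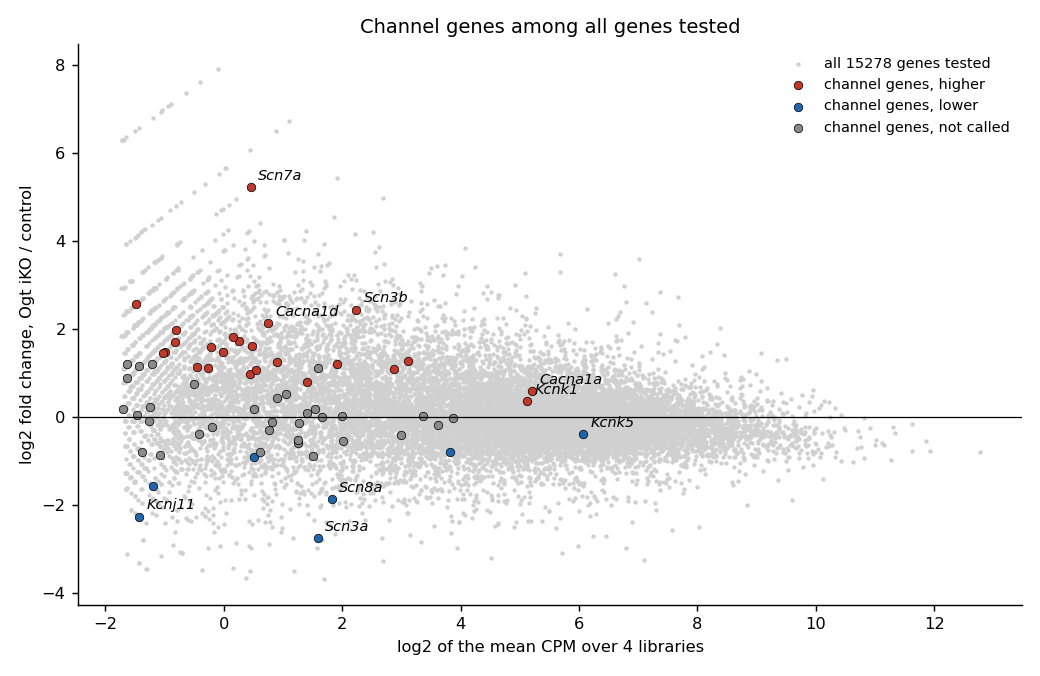
Log2 fold change (y axis, Ogt iKO over control) against the log2 of the mean CPM (x axis) for all genes tested (small grey points) and 64 channel genes (large points, red higher, blue lower, grey not called). Most channel genes sit at the low end of the level axis, and Kcnk5, Cacna1a and Kcnk1 are the 3 at 16 CPM and over.

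Promoter sequence was examined for 4 members, because the study concerns DNA methylation, which falls on CpG dinucleotides. The 250 bases before a RefSeq start site (GRCm38.p6) are printed 5′ to 3′ on the gene's strand, in lower case with each CpG in capitals. Scn7a is shown as the largest rise, Cacna1d as the largest rise among calcium channels, Scn8a as a clear fall and Kcnk5 as the most expressed gene. For Cacna1d and Scn8a, each with 2 listed starts, the start with more CpG is printed.
Scn7a: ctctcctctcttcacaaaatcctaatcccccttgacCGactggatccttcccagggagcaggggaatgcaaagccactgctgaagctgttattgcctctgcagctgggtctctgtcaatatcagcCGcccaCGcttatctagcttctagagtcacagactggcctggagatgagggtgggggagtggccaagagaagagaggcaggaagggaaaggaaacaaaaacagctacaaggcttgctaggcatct
Cacna1d: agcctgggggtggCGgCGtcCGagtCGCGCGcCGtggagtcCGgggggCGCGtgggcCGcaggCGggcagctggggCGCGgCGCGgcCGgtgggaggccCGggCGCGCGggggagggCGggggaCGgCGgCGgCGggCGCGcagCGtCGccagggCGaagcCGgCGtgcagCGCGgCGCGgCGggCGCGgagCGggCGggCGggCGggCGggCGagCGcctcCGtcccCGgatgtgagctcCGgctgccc
Scn8a: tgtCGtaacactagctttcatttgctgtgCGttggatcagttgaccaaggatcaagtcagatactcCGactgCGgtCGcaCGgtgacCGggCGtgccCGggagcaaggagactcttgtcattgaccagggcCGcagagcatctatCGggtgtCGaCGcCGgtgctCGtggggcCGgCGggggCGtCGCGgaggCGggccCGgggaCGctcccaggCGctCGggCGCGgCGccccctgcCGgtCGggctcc
Kcnk5: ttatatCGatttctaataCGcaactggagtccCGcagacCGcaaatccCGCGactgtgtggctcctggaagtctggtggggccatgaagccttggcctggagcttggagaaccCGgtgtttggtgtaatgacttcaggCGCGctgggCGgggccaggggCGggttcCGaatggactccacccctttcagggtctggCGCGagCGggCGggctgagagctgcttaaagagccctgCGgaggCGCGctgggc

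These windows lie at chr2:66784911-66785160 (minus strand, Scn7a), chr14:30353487-30353736 (minus, Cacna1d), chr15:100870395-100870644 (plus, Scn8a) and chr14:20181783-20182032 (minus, Kcnk5). They hold 3, 50, 30 and 19 CpG, against a median of 6 over all 32851 promoters of the same table. As many or more than the 50 of Cacna1d were found in 0.0944% of them, and as many or fewer than the 3 of Scn7a in 37.8%. The second listed starts held 2 CpG for Cacna1d and 9 for Scn8a, and counts per gene do not show which start was used. Of the 115 genes 83 (72.2%) had a promoter entry, too few for a comparison of promoters over the class, and none was made. No methylation values were used here.

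The counts by role that follow describe 4 to 26 tested genes each, beside 31.8% higher and 30.8% lower over all genes, and nothing particular to a role is read from them. Sodium channel alpha subunits, which form the pore that drives the upstroke of the action potential, went in opposite directions. Among their 10 genes, 6 were tested, of which 2 rose and 2 fell. Summed over the 10, the level was about the same in each library, at 13.7 and 14.1 CPM in Ogt iKO and 12.8 and 13.7 CPM in control. The genes that made up that sum differed.

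Scn3a encodes an alpha subunit known mainly from the embryonic brain and lies on chromosome 2 from 65457118 to 65567591 in GRCm38. Control libraries gave 78 and 83 counts and Ogt iKO libraries 9 and 16, or 5.05 and 5.41 CPM against 0.525 and 1.03 CPM. Both Ogt iKO libraries lay far below both controls, at 14.8% of the control level (log2 fold change of -2.76 with SE 0.31, adjusted p 8.7e-05, edgeR). Scn8a, an alpha subunit of mature neurons on chromosome 15, had 5.63 and 5.48 CPM in control and 1.75 and 1.29 CPM in Ogt iKO. It fell to 27.6% of control (log2 fold change of -1.86 with SE 0.24, adjusted p 0.000185, edgeR), again with groups well apart. In control these 2 genes were the most abundant alpha subunits, per library and per exon length (0.420 RPKM for Scn3a and 0.352 for Scn8a).

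Scn7a encodes a divergent member that is not gated by voltage and is known as a sensor of sodium concentration. It was counted 0 and 2 times in control and 58 and 31 times in Ogt iKO. On these counts the ratio was 41.9, with an exact interval (Clopper-Pearson, 95%) from 11.3 to 352. The fitted log2 fold change of Scn7a, which depends on the prior count at such low control counts, was 5.22 (adjusted p 0.000196, edgeR), 4.29 without control replicate 1 and 8.44 without control replicate 2. Of the Ogt iKO libraries, replicate 1, which had the higher sum of fibroblast markers, also had more Scn7a, and the part of those cells in this value was not tested. Scn1a (4 and 9 counts in each group) and Scn4a (11 and 3 against 2 and 5) did not pass.

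Among sodium channel beta subunits, membrane proteins that bind the alpha subunit and also act in cell adhesion, 3 of 4 rose. Scn3b gave 130 and 130 counts in Ogt iKO, with 24 and 21 in control, a rise of 5.43-fold (log2 fold change of 2.44 with SE 0.22, adjusted p 2.3e-05, edgeR). Scn4b had 31 and 26 against 9 and 6 counts (log2 fold change 1.82, SE 0.38). For both genes the lowest Ogt iKO library lay above the highest control. Scn2b was lower in both Ogt iKO libraries, at 6.42 and 7.21 CPM against 9.32 and 8.74 CPM, but did not pass (adjusted p 0.0553, edgeR). Beta subunits together amounted to 28.2 and 28.5 CPM in Ogt iKO and 16.6 and 15.7 CPM in control.

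**Figure D4:**
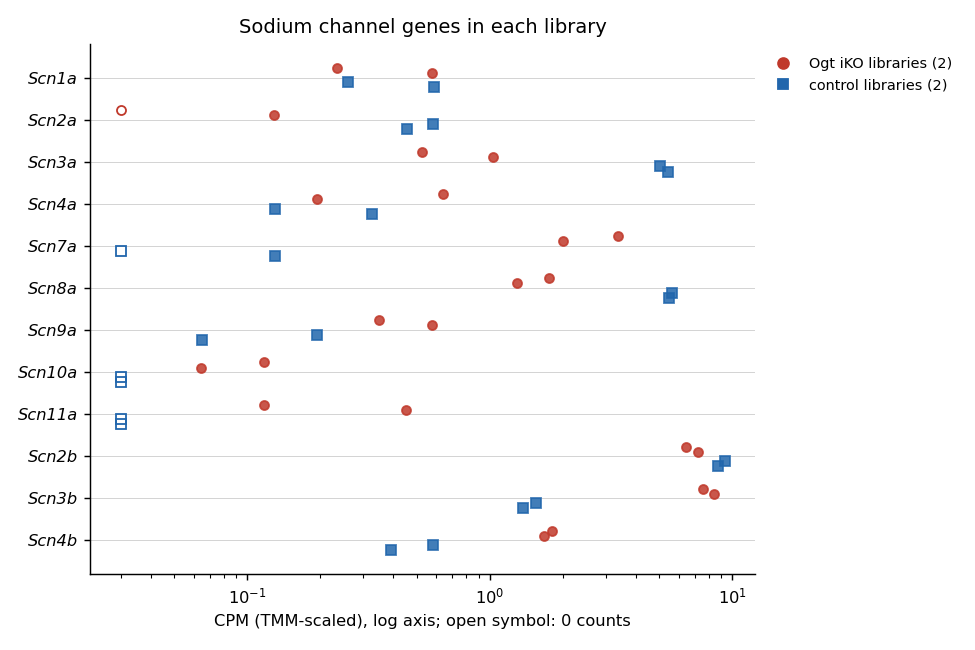
CPM of 12 sodium channel genes (x axis, log scale) in each of the 2 Ogt iKO libraries (red circles) and 2 control libraries (blue squares), with open symbols for 0 counts. Scn3a and Scn8a lie to the left in Ogt iKO, while Scn7a, Scn3b and Scn4b lie to the right.

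Calcium channel alpha1 subunits form the pores through which calcium enters on depolarisation. Of 9 genes 7 were tested, of which 4 rose (57.1%, against 31.8% of all genes) and 0 fell (against 30.8%), with a median log2 fold change of 0.59. The sodium channel beta, auxiliary potassium and calcium- and sodium-activated groups held 0 falls as well. The summed level of the calcium channel genes was 71.7 and 72.5 CPM in Ogt iKO against 46.6 and 49.3 CPM in control. Cacna1a, the pore of the channel that triggers transmitter release at many synapses, was the most abundant, with 719 and 724 counts in Ogt iKO libraries and 430 and 477 in controls. It rose by 0.59 on the log2 scale (SE 0.095, adjusted p 0.000637, edgeR), a small change that exceeded the spread between libraries. Cacna1d, an L-type channel of pacemaking and hormone-secreting cells, had 56 and 34 counts against 7 and 12 (log2 fold change of 2.14 with SE 0.38, adjusted p 0.0012, edgeR). Cacna1g, a T-type channel that opens at low voltage, went from 4.21 and 5.15 CPM to 11.2 and 8.82 CPM (log2 fold change 1.10, SE 0.20). Cacna1c, also an L-type gene, had 42 and 23 against 12 and 17 counts and passed narrowly (adjusted p 0.0346, edgeR), a call lost without Ogt iKO replicate 1, without control replicate 1 and with DESeq2. Cacna1b, the N-type channel of nerve endings, had 9.80 and 11.1 CPM in Ogt iKO and 11.1 and 9.46 CPM in control, and Cacna1h and Cacna1i did not pass either.

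Voltage-gated potassium (Kv) subunits repolarise the membrane after a depolarisation. Of 40 genes 26 were tested, of which 11 rose and 5 fell, with 10 not past the threshold. The subunits of the Kcnf, Kcng and Kcns groups form no channel on their own and modify other Kv channels. Their called members did not all move the same way. Kcng3 reached 29 and 31 counts in the Ogt iKO libraries and 2 and 15 in the controls (log2 fold change 1.72, SE 0.58), a value that depended on the control library used: it was 0.91 and not past the threshold without control replicate 1 and 3.75 without control replicate 2. Kcns1 had 62 and 48 against 28 and 31 counts (adjusted p 0.0196) and Kcng2 17 and 16 against 6 and 8 (adjusted p 0.0398, edgeR), so both rose. The Kcng2 call was lost with a replicate block and with no filter beyond 1 count, and 9.1% of its exon length overlaps exons on the other strand. Kcng4 fell, from 9 and 11 counts to 2 and 5 (adjusted p 0.0463, edgeR). Kcng1, the most abundant of them, had 2.86 and 3.73 CPM in Ogt iKO and 4.46 and 5.09 CPM in control and did not pass (adjusted p 0.0631, edgeR), and neither did Kcnf1 and Kcns3. The calls for Kcng2, Kcng3, Kcng4 and Kcns1 were all lost with DESeq2, and that for Kcng2 also in each fit without 1 library and those for Kcng4 and Kcns1 in 3 of these 4 fits.

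Shaker-type genes of the Kcna group, whose products set the firing threshold of axons and act in T cells, rose in 3 of the 4 tested members. Kcna6 was counted 13 and 8 times in control and 36 and 33 times in Ogt iKO (log2 fold change of 1.62 with SE 0.35, adjusted p 0.00342, edgeR), although 39.6% of its exon length overlaps exons on the other strand and the counted strand is not given in the sources used here. Kcna1 had 20 and 22 against 6 and 7 counts, and Kcna3 10 and 14 against 5 and 3. Neither of these calls was made by DESeq2, and that for Kcna3 was also lost in 3 of the 4 fits without 1 library. Kcna7 fell from 25 and 32 counts to 15 and 17 (log2 fold change -0.91, adjusted p 0.0381, edgeR), a call lost without Ogt iKO replicate 1, without control replicate 2, with DESeq2 and under scaling by library totals. Kcnc4, of a group known from fast-spiking neurons, had 29 and 19 against 9 and 7 counts and rose (log2 fold change 1.48, SE 0.40), but not with DESeq2 or without control replicate 2. Kcnd2, a fast-inactivating channel of dendrites, passed narrowly with 16 and 8 against 5 and 3 counts (adjusted p 0.0487, edgeR), a call lost with DESeq2 and in 3 of the 4 fits without 1 library.

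Kcnq genes carry the M current that damps repetitive firing. Kcnq3 had 50 and 36 counts in Ogt iKO libraries against 17 and 17 in controls, and Kcnq5 18 and 19 against 10 and 6, and both rose (adjusted p 0.00544 and 0.0432, edgeR). DESeq2 called neither, and the Kcnq5 call was also lost in each fit without 1 library. Kcnh2, the hERG channel that ends the heartbeat's action potential, was the most abundant Kv gene over the 4 libraries and fell. It had 278 and 276 counts in control but 165 and 174 in Ogt iKO, a level 57.8% as high (log2 fold change of -0.79 with SE 0.13, adjusted p 0.000836, edgeR). The second most abundant, Kcnd1, did not pass, at 202 and 174 counts in the Ogt iKO libraries and 218 and 184 in the controls (log2 fold change -0.18, SE 0.14). Of the other tested Kcnh genes, 5 of 5 did not pass.

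**Figure D5:**
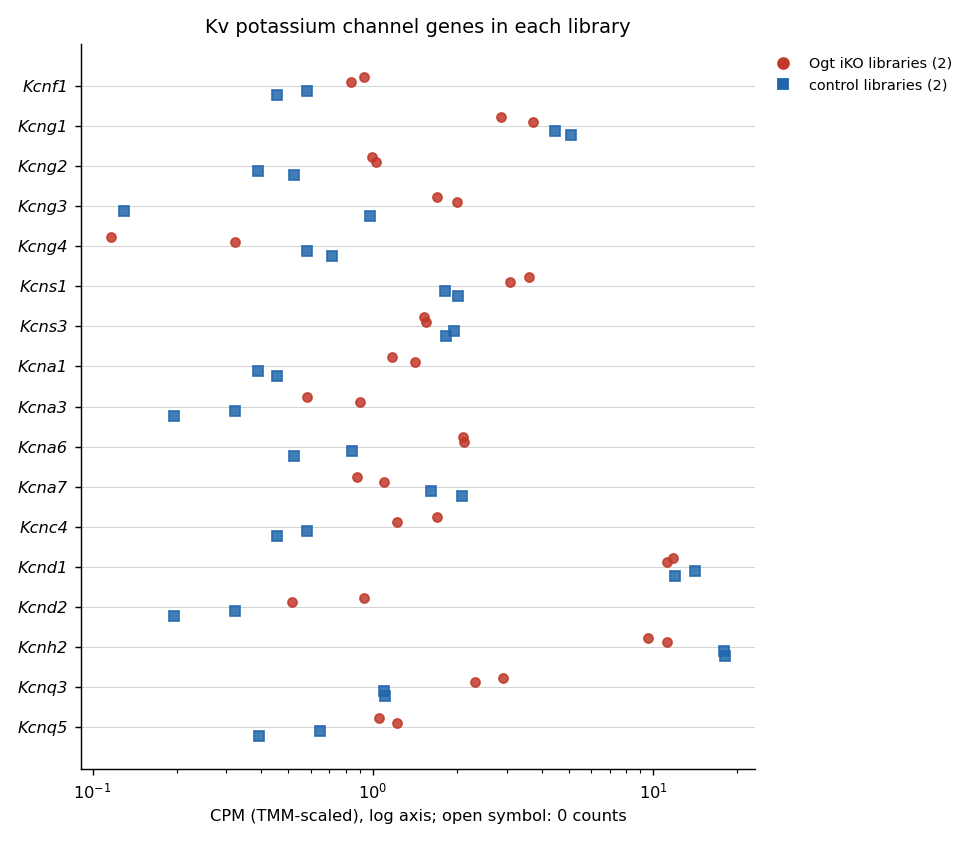
CPM of 17 Kv potassium channel genes (x axis, log scale) in each Ogt iKO library (red circles) and control library (blue squares). Kcnh2 and Kcna7 lie to the left in Ogt iKO and Kcnq3 and Kcna6 to the right, while the Kcng3 controls (0.129 and 0.978 CPM) lie far apart.

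Tandem-pore (K2P) channels carry the background leak of potassium and had the highest summed CPM of the 8 role groups. Of 14 genes 6 were tested, with 2 higher and 1 lower. The sum over their 14 genes was 113 and 117 CPM in Ogt iKO against 124 and 124 CPM in control. Kcnk5, a leak channel regulated by external pH and cell volume, had 1169 and 1181 counts in control and 974 and 932 in Ogt iKO. It fell to 76.5% of control (log2 fold change of -0.39 with SE 0.072, adjusted p 0.00144, edgeR). Kcnk1, a weakly conducting member found in many tissues, rose to 128% of control (39.1 and 39.01 CPM against 31.3 and 29.7 CPM, adjusted p 0.00437, edgeR), with 8.01% of its exon length under an opposite exon. Kcnk6 differed little, at 14.9 and 14.4 CPM in Ogt iKO and 15.0 and 14.5 CPM in control. Its log2 fold change was -0.012 (SE 0.12). Kcnk13 had only 8 and 12 counts against 1 and 2, a ratio of 6.28 with an exact interval from 1.86 to 33.02, and its call was lost with DESeq2 and without control replicate 1.

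Inward rectifiers (Kir) clamp the resting potential and couple it to metabolism. Of 15 genes only 6 were tested, with 2 higher and 1 lower. Kcnj4, a strong rectifier of brain and heart, was the most abundant, with 212 and 186 counts in Ogt iKO libraries and 74 and 82 in controls (log2 fold change of 1.26 with SE 0.16, adjusted p 0.000164, edgeR). Kcnj10, the glial potassium-buffering channel, had 31 and 28 against 15 and 13 counts (adjusted p 0.0241, edgeR), a call lost with DESeq2 and in each fit without 1 library. Kcnj11, the pore of the ATP-sensitive channel that controls insulin release, reached 1 and 3 counts in the Ogt iKO libraries and 10 and 9 in the controls. On these counts control was 5.04 times Ogt iKO, with an exact interval from 1.68 to 20.4, and the call was lost with DESeq2, without Ogt iKO replicate 1 and without control replicate 1. Kcnj15 stood apart in 1 library, with 123 counts in Ogt iKO replicate 1 against 16 in replicate 2 and 23 and 36 in control, and did not pass (adjusted p 0.185, edgeR). Replicate 1 is also the library with the highest sum of fibroblast markers, and the part of those cells in this value was not tested.

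Calcium- and sodium-activated potassium channels link excitability to ion entry, and all 8 genes were tested. Only Kcnma1 and Kcnt1 rose and 0 fell. Kcnma1, the large-conductance BK channel, was counted 6 and 1 times in control and 16 and 14 times in Ogt iKO (log2 fold change of 1.98 with SE 0.62, adjusted p 0.0201, edgeR), a change that was 1.23 and did not pass without control replicate 2, was 3.66 without control replicate 1, and was not called by DESeq2. Kcnt1, a sodium-activated channel, had 11 and 17 against 3 and 5 counts, a call lost with DESeq2, without Ogt iKO replicate 2 and without control replicate 1. The small-conductance channels Kcnn2 (4.20 and 3.86 CPM in Ogt iKO, 4.14 and 3.78 in control) and Kcnn1 (60 and 43 counts, against 51 and 46) were the most abundant of this group, and their libraries overlapped. For Kcnu1, a channel of sperm, both groups were uneven (34 and 45 against 16 and 36 counts).

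Auxiliary potassium channel subunits alter trafficking and gating of the pores. Of 15 genes 7 were tested, of which 1 rose and 0 fell. Kcnip3, a calcium-binding protein that binds Kv channels and has also been described as a transcriptional repressor, gave 87 and 84 counts in Ogt iKO, with 32 and 38 in control (2.30-fold, adjusted p 0.00135, edgeR). Kcnip2 had 2.10 and 2.51 CPM against 2.91 and 2.15 CPM and overlapped between groups. Kcnab2, a beta subunit with an oxidoreductase fold, had 79 counts in control replicate 2 but 34 in control replicate 1 and 32 and 33 in Ogt iKO, and did not pass (adjusted p 0.0732, edgeR).

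Genes under the threshold were read as a sum. The 45 genes together reached 141 and 141 counts in the Ogt iKO libraries and 57 and 48 in the controls, or 8.23 and 9.08 CPM against 3.69 and 3.13 CPM. Of the 38 with any count, 30 had more CPM in Ogt iKO and 8 had more in control. All 4113 genes of the series with 1 to 19 counts summed to 498 and 450 CPM in Ogt iKO against 295 and 303 CPM in control, and 2599 of them had more in Ogt iKO. No test was made of these sums. Examples with more in Ogt iKO are Kcne3 (5 and 5 counts against 0 and 0), Kcna5 (10 and 6 against 1 and 0) and Scn11a (2 and 7 against 0 and 0). Examples with more in control are Scn2a (0 and 2 against 9 and 7) and Kcnj9 (1 and 4 against 5 and 8). All were chosen after their values were seen.

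Lists of related genes were read beside the channels and the shares over all genes (31.8% higher, 30.8% lower). Of 28 other voltage-gated, chloride and cyclic nucleotide-gated channels, 21 were tested, with 6 higher (28.6%) and 3 lower (14.3%) and a median log2 fold change of 0.14. Clcn5, an endosomal chloride exchanger, rose by 1.12 on the log2 scale (SE 0.086) and Clcn2 by 0.72 (SE 0.096). Of 34 proteins that bind these channels, 24 were tested, with 10 higher (41.7%) and 5 lower (20.8%) and a median of 0.76. Cacnb3, a cytoplasmic calcium channel subunit, rose by 0.82 (SE 0.072), Cacna2d1, an extracellular one, by 1.32 (SE 0.13), and the scaffold Ank2 by 0.75 (SE 0.085), these being the 3 called members with the smallest adjusted p. Relatives of these genes went either way, with log2 fold changes of 1.13 for Cacnb2 and 1.32 for Cacnb4 but -1.18 for Cacna2d2 and -0.63 for Ank3. The third list was the REST complex, which is known to repress many neuronal genes, channels among them, outside neurons. Of its 15 genes 3 were higher (against 31.8% of all genes) and 9 lower (60.0%, against 30.8%), with a median of -0.24. Most of them lay at 16 CPM or over, where 28.2% of all genes rose and 42.8% fell, with a median of -0.11. Rest itself had 159 and 167 CPM in Ogt iKO against 373 and 417 CPM in control (log2 fold change of -1.28 with SE 0.069, adjusted p 1.954e-06, edgeR). Sin3a and Rcor2 had log2 fold changes of -1.07 and -0.62, while their relatives Sin3b and Rcor3 rose by 0.38 and 0.58, and Kdm1a did not pass. Any part of REST in the channel changes was not tested.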

How the data were processed

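Polyadenylated RNA of 4 libraries was counted per gene. The authors deposited raw counts per gene symbol, with no normalization, and STAR, Picard and the build mm10 are named in the submitters' processing notes. Versions, annotation, counted strand and the treatment of reads mapped to several loci are not given in the sources used here, so genes with overlapping exons (over 5% of exon length for 15 of the 115) and close paralogs are uncertain.

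Genes with at least 20 counts over the 4 libraries (15278) were tested with edgeR 4.0.16 in R 4.3.3 (TMM, quasi-likelihood, 4 libraries in 1 fit, no covariate), with Benjamini-Hochberg adjustment over all of them. SEs come from the fold change and its F statistic. Exact tests on 2 against 2 libraries cannot go below p = 0.333. Exon lengths and overlaps came from GENCODE M21 and positions and promoters from RefSeq, both GRCm38. The fit was also run on simulated counts in which only a small part of the genes was changed, unlike in these data, and no result here rests on it.

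The members, lists and tests were chosen with earlier results of these data known. Named genes were the 8 called ones with the largest change each way (at least 1 CPM, groups apart), the 8 most abundant, the best called and most abundant of each role, and any with at most 3 counts per library in 1 group and at least 20 in the other. Further members were named to complete a role, after their values were seen, and some genes that the rule names are not reported here or plotted. DESeq2 1.42.0, other scalings, filters and thresholds, a replicate block and leaving out each library were alternatives.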

Additional observations from a re-analysis of the deposited data

How the results depend on the processing

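The 27 higher and 9 lower channel genes (38.6% and 12.9%, against 31.8% and 30.8% of all genes) became 13 and 6 with DESeq2 (18.6% and 8.57%, against 23.3% and 25.8%), 15 and 6 at an adjusted p under 0.01 (21.4% and 8.57%, against 23.99% and 24.04%), and 23 and 5 when a fold of at least 2 was also asked (32.9% and 7.14%, against 14.7% and 6.03%). With library totals 27 rose (38.6%, against 40.6%) and 7 fell (against 21.6%). With DESeq2, at the stricter threshold, with library totals and without control replicate 1 (24.3% against 26.3%) the share of rises was below that of all genes. Leaving out 1 library in turn gave 17 to 24 higher (24.3% to 34.3%, lowest without control replicate 1) and 7 to 12 lower (at most 17.1%), beside 26.3% to 30.7% higher and 25.7% to 30.6% lower of all genes. In 11 alternative fits (which include filterByExpr, where 4 called genes were not tested) 0 of the 36 called genes changed sign. With the replicate block 26 were higher and 10 lower (37.1% and 14.3%, against 32.7% and 31.3% of all genes). The labels do not say that the numbers pair libraries, and same-numbered libraries hardly deviated together (correlation across genes 0.0698).

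The median log2 fold change of 0.29 depended on which genes entered. It was 0.84 for genes with at least 10 counts and 0.18 for those with at least 50, 0.40 under filterByExpr, 0.13 for genes with at least 10 counts in each group (a choice made after seeing the data), and 0.23 to 0.61 with 1 library left out, highest without control replicate 2. Scaling by library totals alone moved it to 0.47, and that of all genes from 0.028 to 0.20, so that Kcnk6 changed sign to 0.16. Other signs changed with a library left out, in genes that did not pass: Cacna1b ran from -0.088 to 0.15 (-0.081 without control replicate 2), Kcnk6 from -0.035 to 0.011 and Kcnn2 from -0.038 to 0.093 (-0.031 without Ogt iKO replicate 1). The cause of these differences was not tested. Depth limits genes of under 1 CPM, 24 of the 70, most. Between replicates, 10 channel genes were at least 2-fold higher in control replicate 2 than in control replicate 1 and 1 the other way (14.3% and 1.43%, against 2.51% and 2.43% of all genes). In Ogt iKO, 6 were higher in replicate 1 and 5 in replicate 2 (8.57% and 7.14%, against 3.23% and 0.956% of all genes). Channel genes had a median of 1.73 CPM against 21.5 CPM over all genes, and counting error is larger at low counts. Shares at a matched level were not computed, so unusual variation of the channels cannot be read from these values.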

Other observations

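Several channel genes lie next to each other, and neighbours did not always move together. On chromosome 2, Scn3a and Scn2a lie side by side, with Scn2a (65620764 to 65767447) at 9 and 7 counts in control and 0 and 2 in Ogt iKO, the direction in which Scn3a fell. Further along the chromosome, Scn9a (66480080 to 66635114) had 3 and 1 counts in control and 6 and 9 in Ogt iKO, and its neighbour Scn7a rose from 0 and 2 to 58 and 31. Scn1a, between these pairs, had 4 and 9 counts in both groups. On chromosome 9, Scn10a (2 and 1 counts in Ogt iKO) and its neighbour Scn11a (2 and 7) were at 0 in both controls. On chromosome 6, Kcna1 and Kcna6 rose and Kcna5 between 126532551 and 126535555 had 10 and 6 counts in Ogt iKO libraries and 1 and 0 in controls. On chromosome 7, Kcna7 and Kcnj11 were lower and Kcnc1, a neighbour of Kcnj11, had 7 and 6 counts against 1 and 0. These genes were chosen for their position after their values were seen. Scn2a, Scn9a, Scn10a, Scn11a, Kcna5 and Kcnc1 were below the sum of 20 counts and were not tested in the main fit.

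Other families used mainly in excitable or sensory cells gave the following counts, beside 31.8% higher and 30.8% lower over all genes tested. Of 67 ligand-gated ion channel genes 38 were tested, with 17 higher (44.7%) and 1 lower (2.63%) and a median log2 fold change of 0.44. Of 58 clustered protocadherins 24 were tested, with 6 higher (25.0%) and 0 lower and a median of 0.50. Only 5 of 1117 olfactory receptor genes reached 20 counts, with 3 higher and 1 lower. The channel genes had 27 higher (38.6%) and 9 lower (12.9%) of 70, and the differences between families were not tested.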
